A study of Mus musculus with 40 samples.

Results

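Gene expression in the amygdala of mice born germ-free was compared with that of mice raised with a conventional microbiota, over naïve animals and animals that had met a conspecific. All 40 libraries of the series took part. The 28 libraries of germ-free-born mice comprised GF mice, which were kept germ-free until the experiment (4 naïve and 12 SI libraries), and exGF mice, which were born germ-free and left the isolator after weaning to acquire microbes from used bedding (4 naïve and 8 SI libraries). The 12 CON libraries (4 naïve and 8 SI) came from conventionally raised mice. The groups were set by the column names of the count table and by nothing that was measured. All mice were male Swiss Webster mice aged 10 weeks, and the labels name no transgene or deletion in any group. SI mice had been through the 3-chamber social interaction test, in which the partner was a conventionally raised mouse, and were sampled 1 h later. Each naïve library was a pool of RNA from several animals, whereas each SI library was 1 animal. GF and exGF mice descended from germ-free breeding pairs and CON mice from conventional ones, so that the breeding stock and the microbial history of the pups cannot be told apart in this comparison.

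The amygdala is a group of nuclei in the temporal lobe that assigns emotional value to stimuli and takes part in social behaviour. Microbes act on the brain through metabolites, immune signals and the vagus nerve, and germ-free rodents are a model in which these inputs are missing from birth. Swiss Webster is an outbred stock, in which animals do not share one genotype. Processed pseudogenes, which recur below, are copies of a messenger RNA that were written back into the genome. A copy can differ from its parent gene by few bases, and a read that falls where both are identical cannot be placed in one of them.

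Libraries held between 7291810 and 19961958 read pairs assigned to genes, with medians of 14397655.5 in CON and 14512696.5 in germ-free-born mice. No libraries were identical, and the least different libraries of any group differed by 7.21 times the chi-square that counting alone would give. In 5 libraries Gm42418, a gene model that overlaps ribosomal RNA sequence, took more than 5% of the reads. They were the SI library exGF-S7 and the naïve pools exGF-P2, exGF-P1, CON-P3 and CON-P1, where P marks a naïve pool and S an SI animal. The share was 32.3% in CON-P1 and 18.5% in CON-P3 and at most 1.75% in the other libraries. Neuronal and glial markers were present in all libraries. The summed level of 8 excitatory neuron markers ran from 1650 to 2750 CPM (reads relative to a TMM-scaled library size, as given by edgeR) in CON and from 1550 to 2670 CPM in germ-free-born mice, and that of 12 astrocyte markers from 3760 to 5870 and from 3290 to 5560 CPM. In bulk tissue, fewer cells of a type and less RNA per cell cannot be told apart.

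Of 16111 genes tested, 345 differed between germ-free-born and CON mice at an adjusted p under 0.1, that is 2.14% of the genes tested, with 187 higher and 158 lower in germ-free-born mice. All adjusted p-values given here are those of edgeR's quasi-likelihood test with Benjamini-Hochberg adjustment. They set a difference against the spread between these libraries, which are pools in naïve mice and single animals in SI mice. Most differences were small. The median absolute log2 fold change of the called genes was 0.28, 232 genes stayed under 0.5, and 51 exceeded 1, of which 34 were lower and 17 higher in germ-free-born mice. An unadjusted p under 0.05 was reached by 2111 genes. In no gene (0% of those tested) were all 28 germ-free-born libraries above, or all below, the 12 CON libraries. In 3 genes 27 of the 28 lay on one side of every CON library, which were Pign, AC149090.1 and Hist1h2al. Without the 5 libraries rich in Gm42418, 317 genes were called.

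A larger share of pseudogenes than of protein-coding genes was called. Of 399 pseudogenes tested 26 were called (6.52%), with a median absolute log2 fold change of 1.43, against 289 of 14131 protein-coding genes (2.05%), with a median of 0.25. For 21 of the 26, a protein-coding gene aligned to at least 80% of the pseudogene at an identity of at least 80%. Of these 21, 11 had a log2 fold change of the opposite sign to that of the parent, whether or not the parent was called. In 8 of the 21 the parent gene was called too, and in 6 of the 8 the pseudogene and the parent differed in opposite directions. The 6 are not separate cases, since 3 of them share the parent Rpl7a. Of 283 pseudogenes that had a parent but were not called, 25 had a called parent.

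The clearest such set was the ribosomal protein gene Rpl7a, a component of the large ribosomal subunit, with 3 of its processed copies. Coding stretches of 90 bases are shown, from GENCODE transcripts on the build GRCm38, because they show how alike the gene and its copies are, and capitals mark bases that differ from the gene above them. The stretches lie at chr2:26911422-26911511 (plus strand, a coding exon of Rpl7a), chr9:85782450-85782539 (minus, Gm5619), chr9:97179303-97179392 (plus, Rpl7a-ps10) and chr6:34786787-34786876 (plus, Gm13864).
Rpl7a: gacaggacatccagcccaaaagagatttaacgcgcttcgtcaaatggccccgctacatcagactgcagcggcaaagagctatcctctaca
Gm5619: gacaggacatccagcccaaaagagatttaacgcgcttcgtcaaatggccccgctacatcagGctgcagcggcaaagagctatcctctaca
Rpl7a-ps10: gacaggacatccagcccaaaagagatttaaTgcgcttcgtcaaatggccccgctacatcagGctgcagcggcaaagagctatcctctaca
Gm13864: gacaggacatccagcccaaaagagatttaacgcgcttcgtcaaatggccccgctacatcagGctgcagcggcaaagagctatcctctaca
Counted from the start of the stretch, all 3 copies carried the same substitution, A62G, and Rpl7a-ps10 carried C31T as well. Over their whole lengths, with gaps not counted, the copies differed from Rpl7a at 8 of 760 aligned bases (Gm5619), 11 of 798 (Rpl7a-ps10) and 10 of 785 (Gm13864). Windows of 100 bases, the length of 1 read, were identical to the gene in 25.1%, 9.16% and 8.89% of positions.

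Rpl7a itself was lower in germ-free-born mice. CON libraries held 67.7, 82.5 and 95.4 CPM (lowest, median, highest) and germ-free-born libraries 30.2, 47.3 and 76.8 CPM. The ranges overlapped, with 26 of the 28 germ-free-born libraries below every CON library. The log2 fold change was −0.77 ± 0.10 (SE, adjusted p = 7.13e-07).

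Its copies went the other way. Gm5619 had a median of 0.0735 CPM in CON, with a highest value of 1.8 CPM in CON-P1, and a median of 2.67 CPM in germ-free-born mice, where 22 of 28 libraries were above every CON library and exGF-S6 was at 0 CPM. Its log2 fold change was 3.72 ± 0.46 (adjusted p = 7.13e-07). Rpl7a-ps10 had a median of 0 CPM in CON and of 0.674 CPM in germ-free-born mice, and its fitted log2 fold change was 4.22 ± 0.52 (adjusted p = 7.13e-07). Gm13864 had medians of 0.0978 and 0.658 CPM and a log2 fold change of 2.49 ± 0.43 (adjusted p = 0.000287). The levels of all 3 copies in CON were a few reads per library, so that the fitted fold changes depend on the prior count of the fit. The germ-free-born library with the highest Rpl7a level was exGF-S6 at 76.8 CPM. It held 0 CPM of Gm5619, 0 CPM of Rpl7a-ps10 and 0.0637 CPM of Gm13864. The next highest, GF-S2 at 70.4 CPM of Rpl7a, held 2.49 CPM of Gm5619, 0.457 CPM of Rpl7a-ps10 and 0.66 CPM of Gm13864. The median of Rpl7a itself was 82.5 CPM in CON and 47.3 CPM in germ-free-born mice. Reads that match gene and copy alike cannot be placed, so these amounts cannot be set against the gain of the copies. Whether reads were placed differently between Rpl7a and its copies was not tested.

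**Figure D1:**
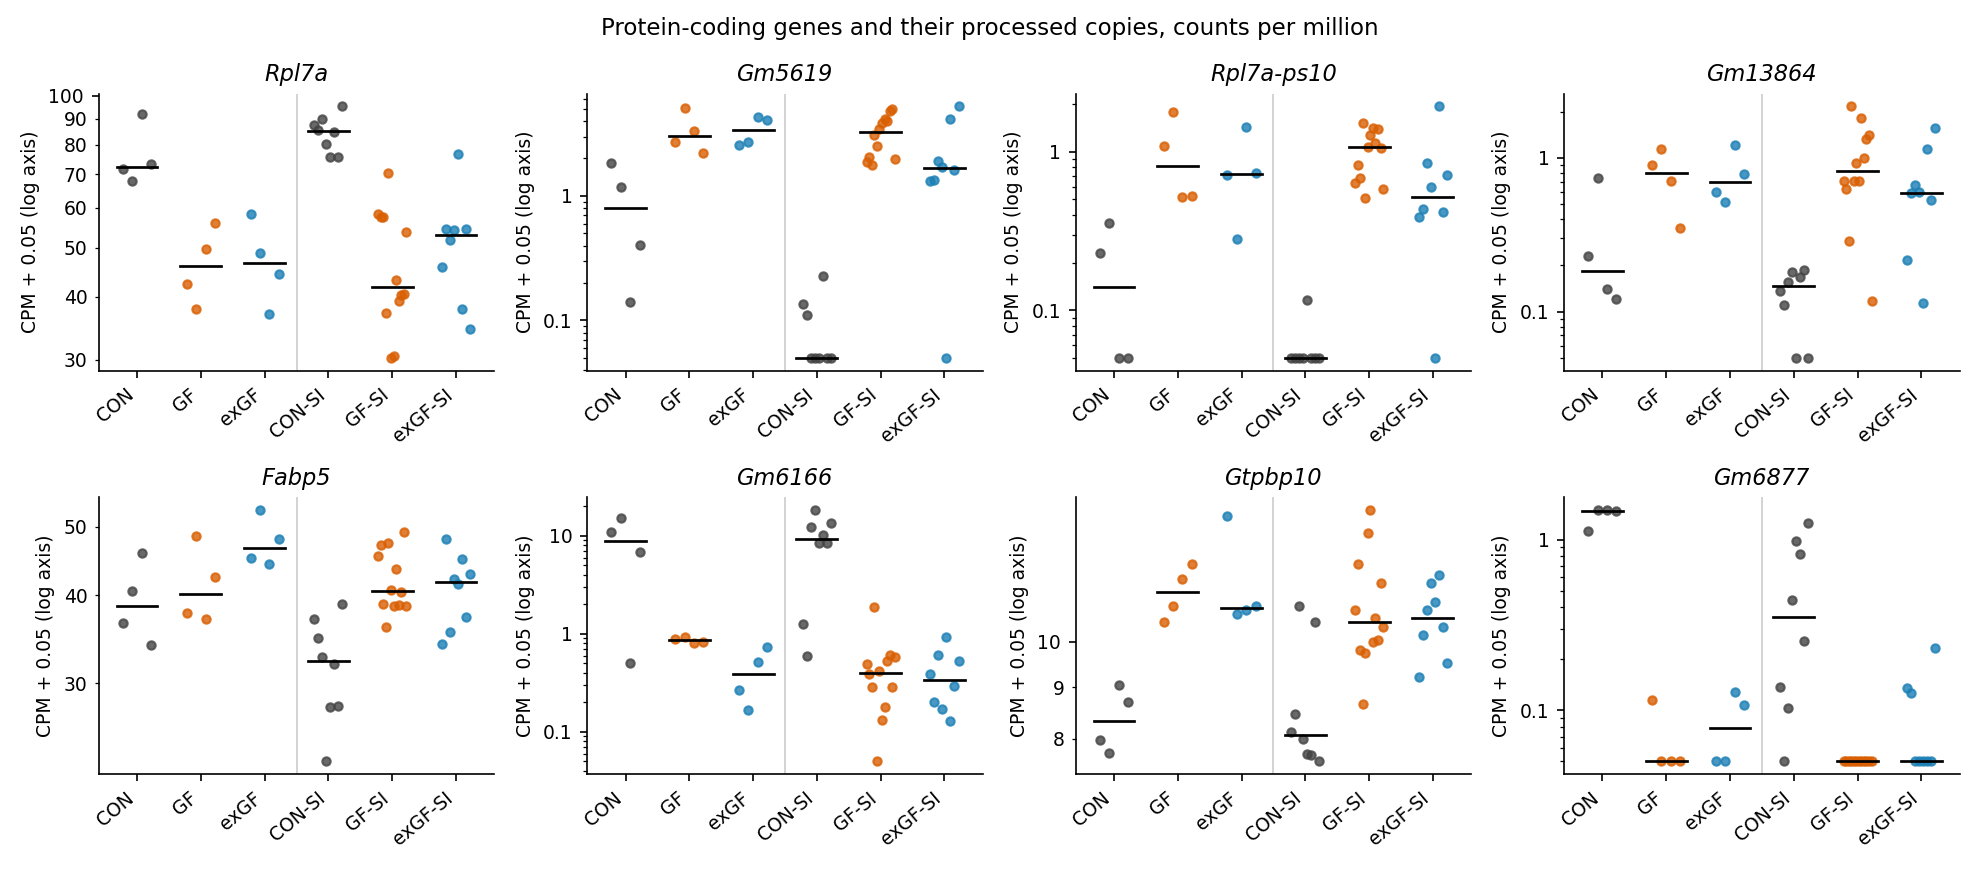
CPM plus 0.05 on a log axis in each of the 40 libraries (points) with the group median (lines), for 3 protein-coding genes and their processed copies. By group median, Rpl7a is lower in GF and exGF libraries and its 3 copies are higher, whereas Gm6166 and Gm6877 are near 0 in GF and exGF libraries and their parents Fabp5 and Gtpbp10 are slightly higher.

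In 3 further pairs the copy was nearly absent from germ-free-born mice. Fabp5 encodes a fatty acid-binding protein that is abundant in glia and neural progenitors, and Gm6166 is its copy on chromosome 9. Gtpbp10 encodes a GTPase of mitochondrial ribosome assembly, with the copy Gm6877 on chromosome 8. Zfand1 encodes a zinc finger protein of stress granule clearance, with the copy Gm14038 on chromosome 2. The stretches shown lie at chr3:10014971-10015060 (plus, Fabp5), chr9:57484042-57484131 (plus, Gm6166), chr5:5539362-5539451 (minus, Gtpbp10), chr8:33191306-33191395 (minus, Gm6877), chr3:10340816-10340905 (minus, Zfand1) and chr2:134762905-134762994 (minus, Gm14038). Capitals again mark bases that differ from the parent, and the stretches of Gm6166 and Gm6877 have none.
Fabp5: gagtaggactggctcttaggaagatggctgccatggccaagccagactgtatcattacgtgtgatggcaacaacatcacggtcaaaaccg
Gm6166: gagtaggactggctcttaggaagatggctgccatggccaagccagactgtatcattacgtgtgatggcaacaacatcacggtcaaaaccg
Gtpbp10: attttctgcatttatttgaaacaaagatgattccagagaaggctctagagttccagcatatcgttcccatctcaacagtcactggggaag
Gm6877: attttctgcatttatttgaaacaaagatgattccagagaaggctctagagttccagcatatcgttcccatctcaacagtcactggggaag
Zfand1: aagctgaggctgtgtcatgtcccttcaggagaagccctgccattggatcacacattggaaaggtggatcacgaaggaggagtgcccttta
Gm14038: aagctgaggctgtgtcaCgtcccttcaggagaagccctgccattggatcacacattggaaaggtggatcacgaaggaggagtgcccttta
Over the whole copy, with gaps not counted, Gm6166 differed from Fabp5 at 5 of 407 aligned bases, Gm6877 from Gtpbp10 at 4 of 1101, and Gm14038 from Zfand1 at 5 of 807. Windows of 100 bases were identical to the parent in 26%, 70.1% and 49.6% of positions.

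Gm6166 had the smallest p of all genes. Its level was 11, 15, 0.45 and 6.81 CPM in the naïve CON pools P1 to P4 and 0.549, 9.31 and 18.5 CPM (lowest, median, highest) in CON-SI, and the germ-free-born libraries held 0, 0.401 and 1.85 CPM. The 3 low CON libraries were CON-P3, CON-S10 and CON-S11, and the other 9 were above every germ-free-born library. The log2 fold change was −4.30 ± 0.34 (adjusted p = 7.06e-12). Fabp5 was higher in germ-free-born mice, with medians of 34.3 and 42.2 CPM and a log2 fold change of 0.32 ± 0.06 (adjusted p = 0.00237).

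Gm14038 had a median of 2.1 CPM in CON and of 0 CPM in germ-free-born mice, whose highest library held 0.153 CPM. In CON it was at 0 CPM in CON-P3 and CON-S11 and at 0.086 CPM in CON-S10, and the other 9 CON libraries were above every germ-free-born library. Gm6877 was lower in germ-free-born mice too, with a median of 0.853 CPM in CON and a highest germ-free-born value of 0.182 CPM. Its low CON libraries were partly others. CON-S10, CON-S11 and CON-S12 held 0.086, 0 and 0.0528 CPM, whereas CON-P3 held 1.44 CPM. Fitted log2 fold changes were −5.96 ± 0.48 for Gm14038 (adjusted p = 7.06e-12) and −4.59 ± 0.44 for Gm6877 (adjusted p = 1.2e-09). Gtpbp10, the parent of Gm6877, was higher in germ-free-born mice (log2 fold change 0.35 ± 0.06, adjusted p = 0.000202), and Zfand1, the parent of Gm14038, did not pass the threshold (0.20 ± 0.07, adjusted p = 0.191).

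Rpl21, another protein of the large ribosomal subunit, and its copy Gm3355 differed in the same direction. Rpl21 held 92.1, 110 and 393 CPM (lowest, median, highest) in CON and 104, 308 and 542 CPM in germ-free-born mice, with overlapping ranges. The log2 fold change was 1.14 ± 0.19 (adjusted p = 0.000215), and that of Gm3355 was 2.36 ± 0.47 (adjusted p = 0.00237). The CON library with the most Rpl21, CON-S11 at 393 CPM, also held the most Gm3355, 1.16 CPM. CON-S6, the next highest in Rpl21 at 228 CPM, held 0 CPM of Gm3355.

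Among protein-coding genes without such a copy, Pign had the smallest p. The gene, at chr1:105518422-105663677 on GRCm38, encodes an ethanolamine phosphate transferase that acts in the synthesis of the glycolipid anchors of cell surface proteins. CON libraries held 14.1, 15.3 and 18.5 CPM and germ-free-born libraries 14.8, 24.4 and 28.4 CPM. The only germ-free-born library within the CON range was exGF-S7. The log2 fold change was 0.63 ± 0.06 (adjusted p = 1.03e-09).

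Cfap74 (chr4:155409190-155466823), a protein of the axoneme of cilia and flagella, was also higher in germ-free-born mice. Its level was 2.7, 4.96 and 8.82 CPM in CON and 5.87, 10.2 and 14.6 CPM in germ-free-born mice, where 23 of 28 libraries were above every CON library (log2 fold change 0.98 ± 0.13, adjusted p = 2.18e-06). Coq2, which attaches the isoprenoid tail in coenzyme Q synthesis, had medians of 29.2 and 44.7 CPM, with 24 of 28 germ-free-born libraries above the CON range (0.63 ± 0.10, adjusted p = 7.73e-05). Tpm3, a tropomyosin of the actin cytoskeleton, had medians of 76.4 and 127 CPM with overlapping ranges (0.67 ± 0.12, adjusted p = 0.000331).

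Genes of low level were higher as well. Ahnak2, a large scaffold protein, had medians of 0.662 and 2.32 CPM (log2 fold change 1.40 ± 0.22, adjusted p = 5.84e-05). Slfn8, of the Schlafen family that is known from immune cells, had medians of 0.541 and 1.37 CPM (1.33 ± 0.24, adjusted p = 0.000577). Krt12, a keratin known from the cornea, had medians of 1.89 and 4.31 CPM (1.06 ± 0.17, adjusted p = 8.2e-05). The antisense transcript A830036E02Rik overlaps Krt12 on the opposite strand and rose with it, from a median of 11.4 to 31.1 CPM (1.34 ± 0.25, adjusted p = 0.00133). The reads were counted without regard to strand, so that reads from Krt12 and from A830036E02Rik cannot be told apart where they overlap.

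The protein-coding genes that were lower in germ-free-born mice included Scg5 (chr2:113776362-113829121), the neuroendocrine secretory protein that assists a prohormone convertase in peptide-secreting neurons. Its level was 171, 268 and 509 CPM in CON and 142, 182 and 217 CPM in germ-free-born mice. In CON 9 of 12 libraries were above every germ-free-born library, with CON-S3 at 509 CPM, and the log2 fold change was −0.59 ± 0.09 (adjusted p = 2.34e-05). Pla2g7, which inactivates the lipid mediator platelet-activating factor, had medians of 120 and 70.6 CPM, with 9 of 12 CON libraries above the germ-free-born range (−0.66 ± 0.09, adjusted p = 1.41e-05). Dcps, the scavenger decapping enzyme of mRNA decay, had medians of 6.86 and 4.78 CPM, and 11 of 12 CON libraries were above every germ-free-born library (−0.53 ± 0.07, adjusted p = 2.07e-06). 4930447C04Rik, which overlaps the homeobox gene Six6 on the opposite strand, had medians of 2.32 and 0.542 CPM (−1.96 ± 0.24, adjusted p = 7.13e-07).

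**Figure D2:**
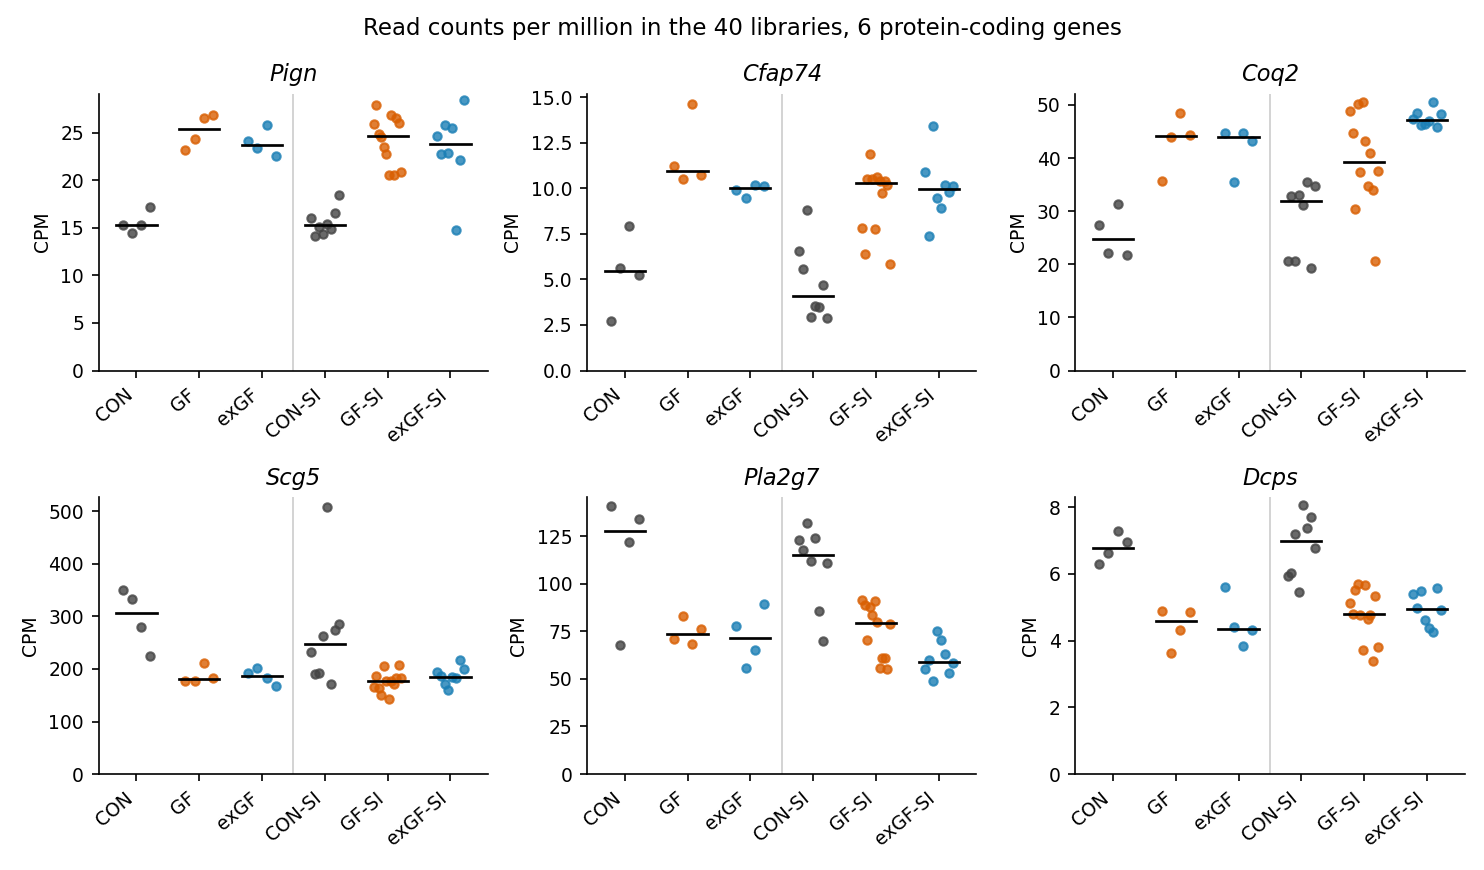
CPM in each of the 40 libraries (points) with the group median (lines) for 6 protein-coding genes, on linear axes that start at 0. By group median, Pign, Cfap74 and Coq2 are higher and Scg5, Pla2g7 and Dcps lower in GF and exGF libraries than in CON libraries of the same stimulus state. Single libraries overlap, such as exGF-S7 at 14.8 CPM of Pign and GF-S8 at 20.6 CPM of Coq2, both within the CON range.

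In several called genes the CON libraries did not share one level. Tuba1c (chr15:99029891-99038110), an alpha-tubulin, held 6.48, 14.3, 5.31 and 17.5 CPM in the naïve CON pools and 20, 18.3 and 15.7 CPM in CON-S10, CON-S11 and CON-S12. The other 5 CON-SI libraries held between 0.6 and 1.1 CPM, within the germ-free-born range of 0.231 to 4.13 CPM. The log2 fold change was −2.83 ± 0.38 (adjusted p = 4.38e-06), the call held without each library in turn, and the 5 low CON-SI libraries overlapped with the germ-free-born libraries. Prss56, a serine protease known from the eye and chosen after its values were seen, was at 2.32, 9.77 and 2.59 CPM in the same 3 SI mice, at 1.89 CPM in CON-P3 and at 1.01 and 0.823 CPM in CON-S5 and CON-S7. In the other 6 CON libraries it was at most 0.142 CPM and in germ-free-born libraries at most 0.203 CPM (log2 fold change −4.49 ± 0.54, adjusted p = 6.8e-07).

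The call of Gm10800, a predicted gene on chromosome 2, rested on 1 library. CON-S3 held 1060 CPM, whereas the next CON library held 13.5 CPM and the germ-free-born libraries at most 7.75 CPM. Its log2 fold change was −6.28 ± 0.99 (adjusted p = 7.68e-05), and it was −1.74 without CON-S3 (adjusted p = 0.257). Gm21738 and Gm26870 lost their calls without CON-S3 too. That library held 157 CPM of Gm21738 and 65.9 CPM of Gm26870, and the next CON library 2.54 and 3.23 CPM. AC149090.1, a protein-coding model on the unplaced scaffold JH584304.1, showed the reverse case. Its medians were 60 CPM in CON and 17 CPM in germ-free-born mice, 27 of 28 germ-free-born libraries lay below every CON library, and GF-S9 held 97.6 CPM, above all of them (−1.60 ± 0.23, adjusted p = 1.02e-05).

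**Figure D3:**
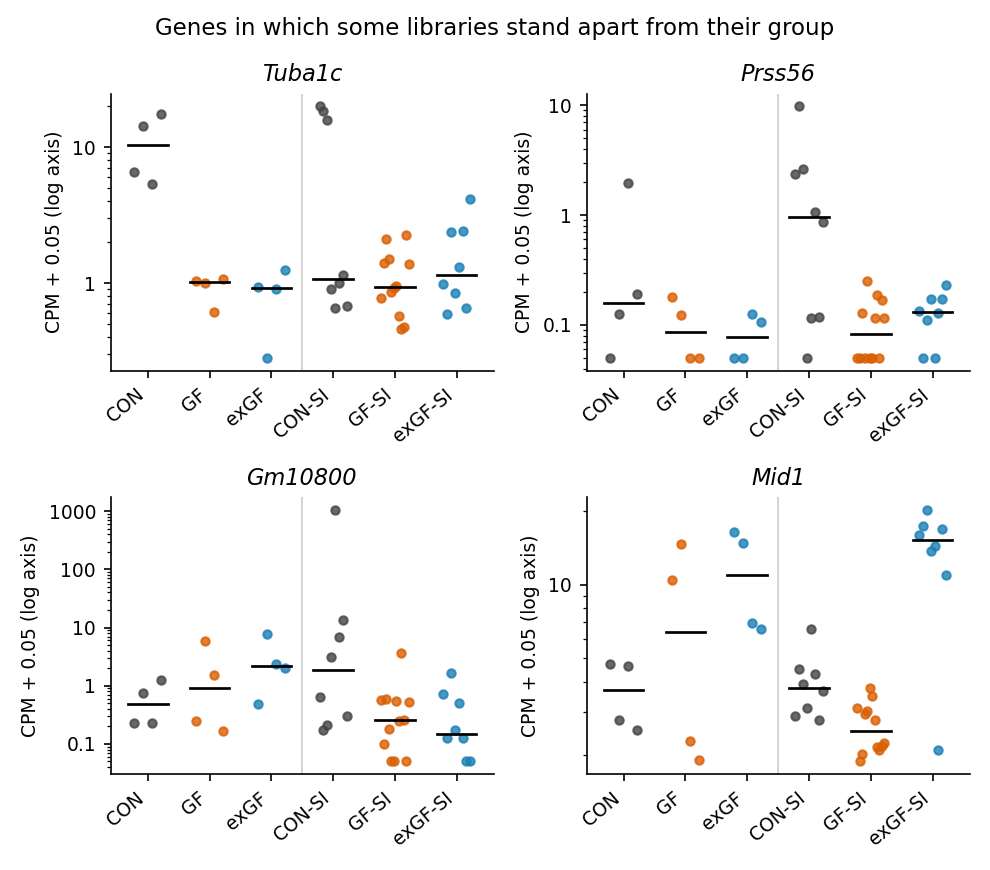
CPM plus 0.05 on a log axis in each of the 40 libraries (points) with the group median (lines) for 4 genes in which some libraries stand apart from their group. Tuba1c has 3 CON-SI libraries at 15.7 to 20 CPM and 5 at 0.6 to 1.1 CPM, Gm10800 has CON-S3 at 1060 CPM, and Mid1 is high in most exGF libraries but low in exGF-S7.

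Replication-dependent histone genes are transcribed in S phase and from gene clusters. Of 42 measured members 6 were called lower and none higher, against 0.981% and 1.16% of all genes tested. Their median log2 fold change was −0.19, against 0 over all genes tested. In the naïve libraries alone 1 member was called lower and the median was 0.07, and in the SI libraries alone 7 were called lower and the median was −0.26. The 6 were Hist1h2al, Hist2h2ac, Hist2h2be, Hist1h4k, Hist1h4i and Hist1h2bj. Hist2h2ac had medians of 4.74 CPM in CON and 2.24 CPM in germ-free-born mice (log2 fold change −1.03 ± 0.18, adjusted p = 0.000298), with exGF-S7 highest among the germ-free-born libraries at 5.43 CPM. Hist1h2al, listed as a processed pseudogene in the annotation, had medians of 9.8 and 1.16 CPM (−2.45 ± 0.37, adjusted p = 3.66e-05), and exGF-S7 at 14.7 CPM was the only germ-free-born library within the CON range. Histone genes have near-identical copies, so that their reads may have been split among them. The calls of Hist1h4i, Hist1h4k and Hist1h2bj were each lost without at least 1 CON-SI library, CON-S5 in the case of Hist1h4i.

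Ribosomal protein genes were called higher in 2 of 76 measured members and lower in 4, with a median of −0.02. Rpl21 and Rps24 were the higher ones and Rpl7a, Rpl18, Rpl32 and Rpl35 the lower ones. Of 12 alpha and beta tubulins only Tuba1c was called. Zinc finger genes of the Zfp series were called in 6 of 334 members in each direction. Over all genes tested, 1.16% were called higher and 0.981% lower.

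Among the lists of immune genes, called members were found in that of MHC class I and antigen presentation, against 2.14% of all genes tested. None of 12 microglial markers, 8 listed complement genes, 16 microbial pattern receptors and adaptors, 16 interferon-stimulated genes and 6 genes of the aryl hydrocarbon receptor pathway was called, while 3, 0, 3, 1 and 1 of them had an unadjusted p under 0.05. The summed level of the microglial markers was 230 to 278 CPM in CON and 202 to 291 CPM in germ-free-born mice. Of 11 genes of MHC class I and antigen presentation, H2-K1 was higher and H2-T22 lower. The call of H2-T22 (−0.85 ± 0.25, adjusted p = 0.0851) was kept without 24 of the 40 libraries left out in turn and under 2 of 10 other alternatives. H2-K1 had medians of 5.56 and 7.24 CPM (log2 fold change 0.50 ± 0.14, adjusted p = 0.0534), and its call was lost without CON-S5 or CON-S6 and in the fit without the 5 libraries rich in Gm42418. H2-Eb1, a class II chain outside the list, was lower (−1.52 ± 0.31, adjusted p = 0.00274), with medians of 0.795 and 0.296 CPM. The complement genes C4a (−0.58 ± 0.17, adjusted p = 0.0919) and Masp2 (−1.04 ± 0.29, adjusted p = 0.0655), both outside the lists, were called lower, and their calls were kept without 20 and 36 of the 40 libraries. Ctss, a lysosomal protease of microglia also outside the list, had medians of 49 and 56.2 CPM (0.26 ± 0.06, adjusted p = 0.0163). Its call was lost with exGF and exGF-SI alone against CON, and the median log2 fold change of the listed microglial markers was −0.06.

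Neuronal and glial lists were without calls over both stimulus states, where 2.14% of all genes tested were called. None of 20 glutamate receptors and scaffolds, 13 GABA receptors, 8 excitatory and 10 inhibitory neuron markers, 12 astrocyte, 12 oligodendrocyte and 12 endothelial markers, 19 immediate early genes, 11 glucocorticoid-responsive genes, 11 social and stress peptides and receptors, and 23 splicing factors was called, with 2, 2, 0, 0, 0, 0, 1, 6, 2, 2 and 2 at an unadjusted p under 0.05. Their median log2 fold changes lay between −0.06 and 0.24, the highest being that of the immediate early genes. In the naïve libraries alone 1 immediate early gene was called higher, and the median of that list was 0.358. In the SI libraries alone its median was 0.183 and no member was called. None of 9 genes of tryptophan metabolism and serotonin and of 6 neurotrophins and receptors was called, with 1 and 0 at an unadjusted p under 0.05. Choroid plexus and ependymal markers reached a summed level of 305 CPM in CON and 1480 CPM in germ-free-born mice, with medians of 48.8 and 49.7 CPM and no member called over both stimulus states. Their median log2 fold change was −0.82 in the naïve libraries, with 2 members called lower, and 1.68 in the SI libraries, with none called. Without the 5 germ-free-born SI libraries with over 500 CPM of the choroid plexus transcript Ttr, 264 genes were called.

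Called genes often lay close to each other. Of 343 called genes with a position on the reference, 153 (44.6%) started within 1 Mb of at least 1 other called gene, against 32.2% of the 15645 other genes tested, and 76 (22.2%) within 1 Mb of at least 2, against 9.66%. These shares were not matched for the number of tested genes nearby, and some called neighbours overlap, such as Krt12 and A830036E02Rik. Some groups of called neighbours were of mixed direction and others of a single one. On chromosome 2, Rpl7a, Surf1, Surf4, Slc2a6 and Inpp5e were lower and Surf6 higher in germ-free-born mice. The calls of Surf6 and Surf1 were kept without 19 and 12 of the 40 libraries left out in turn, and under 4 and 3 of 10 other alternatives. On chromosome 11, Krt12 was higher and Gm11940 lower, and elsewhere on the same chromosome Sp6, a transcription factor of tooth and skin epithelium, was higher (1.09 ± 0.29, adjusted p = 0.0407) and its neighbours Copz2 and D030028A08Rik were lower. On chromosome 12, the inner ear protein gene Coch was lower (−0.89 ± 0.20, adjusted p = 0.00799) and its neighbours Scfd1 and Strn3 were higher. In another stretch of that chromosome Arf6, Atp5s, Cdkl1 and Tmx1 were all higher. The call of Atp5s was kept without 34 of the 40 libraries and under 4 of 10 other alternatives. Farther along the transporter gene Slc38a6 (−0.65 ± 0.12, adjusted p = 0.00119) and 4930447C04Rik were lower. Jkamp, within 1 Mb of 4930447C04Rik, and Hif1a, within 1 Mb of Slc38a6, were called higher. On chromosome 6, Nat8f5 (−1.34 ± 0.22, adjusted p = 0.000112), Alms1-ps1, Alms1-ps2 and Nat8f1 were all lower. The call of Nat8f1 was kept without 28 of the 40 libraries and under 4 of 10 other alternatives. That of Alms1-ps1 was kept under 5 of the 10. Elsewhere on chromosome 6 the arterial endothelial gene Gkn3 (−0.88 ± 0.19, adjusted p = 0.00832) and 1810020O05Rik were lower and Nfu1 higher. On chromosome 9, Gm6166, Gm17322 and Cyp11a1, the enzyme of the first step of steroid synthesis, were lower. Cyp11a1 was highest in CON-S10, CON-S11 and CON-S12, at 1.2, 1.89 and 1.9 CPM. Some other CON libraries, such as CON-S2 at 0 CPM, lay within its germ-free-born range of 0 to 0.329 CPM. Gm17322, which overlaps Cyp11a1, was highest in the same 3 libraries (5.76, 5.31 and 5.6 CPM), and its call was kept under 7 of 10 other alternatives. On chromosome 13 Zscan12 and the histone genes Hist1h4k, Hist1h4i and Hist1h2bj were lower. In the MHC region of chromosome 17, H2-K1 was higher and H2-Eb1, C4a, Stk19 and Gtf2h4 were lower. The calls of C4a and Gtf2h4 were kept under 3 and 4 of 10 other alternatives. By chromosome, the share of tested genes called ran from 0.819% on chromosome 10 to 4.03% on chromosome 12.

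The contrast was also fitted in the naïve and in the SI libraries alone, which share no library. In the naïve libraries 47 of 15037 genes were called (0.313%), of which 24 were higher (0.160%) and 23 lower (0.153%), and in the SI libraries 359 of 15395 (2.33%), of which 169 were higher (1.10%) and 190 lower (1.23%). There were 28 SI and 12 naïve libraries. Both counts moved with single libraries. Without 1 library, the naïve count lay between 16 (without GF-P1) and 43 (without exGF-P1), and it moved by more than 1.5 times for each library left out except GF-P2 and exGF-P1. The SI count fell to 120, 155, 173 and 214 without CON-S5, CON-S3, CON-S11 and CON-S10, and rose to 952 without CON-S7. The naïve count was 13 without the 4 naïve libraries rich in Gm42418, and the SI count was 171 with a correction for GC content and transcript length and 165 without the 5 libraries rich in Ttr.

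Of the 47 genes called in naïve mice, 46 were tested after social interaction, 36 of them had the same sign there and 20 were called in the same direction. The 20 genes were 43.5% of the naïve calls and 5.73% of the SI calls that could be compared. Over all 14964 genes tested in both, 47.7% had the same sign. The 20 genes were Gm6166, Tuba1c, Hist1h2al, AC149090.1, 4930447C04Rik, Gm11940, Gm17202, Scg5, Rpl7a, Dcps, Cep83os, Gm5619, A830036E02Rik, Ahnak2, Krt12, Rpl21, Cfap74, Tpm3, Coq2 and Pign. For Pign the log2 fold change was 0.66 ± 0.08 in naïve mice (adjusted p = 0.00163) and 0.61 ± 0.08 after social interaction (adjusted p = 3.79e-05). Scg5 had −0.67 ± 0.10 (adjusted p = 0.00591) and −0.56 ± 0.12 (adjusted p = 0.0117), and Rpl7a −0.71 ± 0.12 (adjusted p = 0.0255) and −0.80 ± 0.12 (adjusted p = 0.000442). Tuba1c had −3.66 ± 0.31 (adjusted p = 3.57e-05) and −2.46 ± 0.50 (adjusted p = 0.00943).

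**Figure D4:**
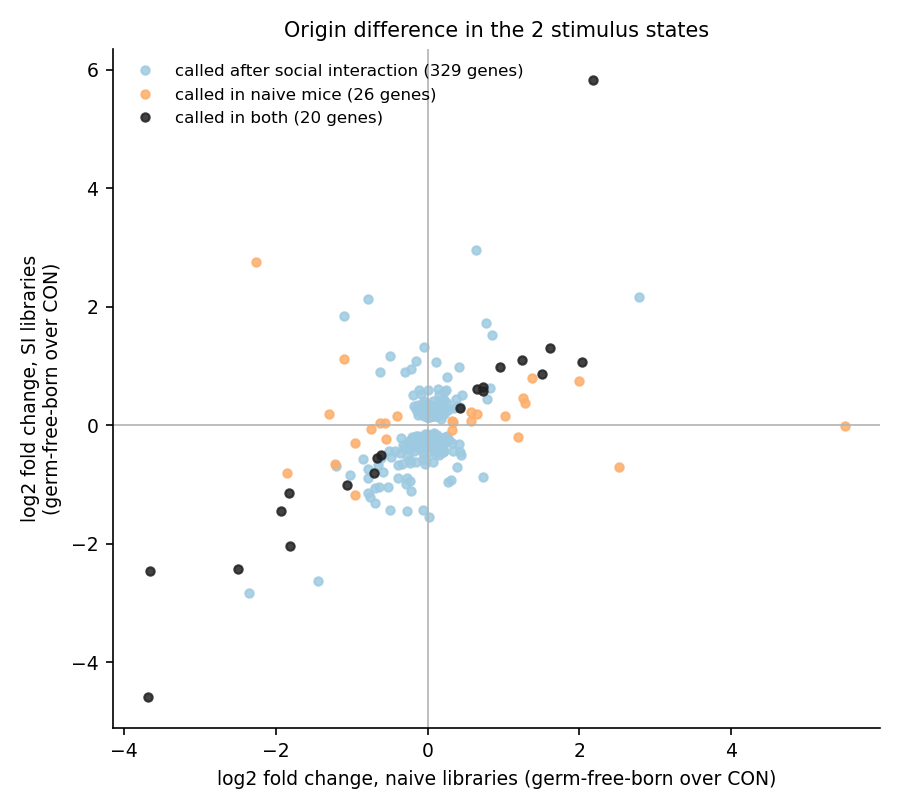
Log2 fold change of germ-free-born over CON in the naïve libraries (x axis) and in the SI libraries (y axis) for the genes called in at least 1 of them and tested in both. The 20 genes called in both (black) lie in the lower left or upper right, and the 26 genes called in naïve mice alone (orange) include genes with opposite signs.

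The difference between germ-free-born and CON mice depended on the stimulus, by the test of the interaction, in 2 of 16111 genes (0.0124%). DESeq2 called 21 genes, and 1675 reached an unadjusted p under 0.05. Glo1, the glyoxalase that clears methylglyoxal, was at 79.2, 80.4, 77.5 and 63.4 CPM in the naïve CON pools, and at 51.7, 44.4, 51.3 and 51.4 CPM in naïve GF and 54.2, 52.1, 51.6 and 49.5 CPM in naïve exGF pools. After social interaction CON libraries held 42.3 to 73.7 CPM, GF libraries 48.7 to 61.5 CPM and exGF libraries 42.5 to 54.9 CPM. The naïve CON pools were thus above all naïve germ-free-born pools, and the SI groups overlapped. The interaction was 0.61 ± 0.11 on the log2 scale (adjusted p = 0.0188).

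Kcnj16, an inward-rectifier potassium channel subunit of glia and other cells, had 18.9, 22.4, 22 and 11.6 CPM in the naïve CON pools and between 5.75 and 10.3 CPM in the 8 naïve germ-free-born pools. After social interaction the 3 groups overlapped, at 5.4 to 10.6 CPM in CON, 5.53 to 10.4 CPM in GF and 5.35 to 13 CPM in exGF mice. The interaction was 1.49 ± 0.24 (adjusted p = 0.00235). Neither gene was called over both stimulus states. Without the 5 libraries rich in Gm42418, among them 2 of the 4 naïve CON pools, neither interaction passed the threshold (adjusted p = 0.883 for Glo1 and 0.505 for Kcnj16). That of Glo1 was also lost without CON-P1, CON-P2 or CON-P3 (adjusted p = 0.147, 0.105 and 0.117), and when GC content and length were corrected for (adjusted p = 0.308). Glo1 overlaps Dnah8 on the opposite strand.

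GF and exGF mice share their birth in isolators and differ in the microbes acquired after weaning, so the contrasts of each with CON were set side by side. Both contrasts use the same CON libraries. GF differed from CON in 154 genes (0.956%) and exGF from CON in 155 (0.962%), of which 92 were higher (0.571%). The counts were 102 without GF-P3 and 91 without exGF-P3, and 66 and 29 without the libraries rich in Gm42418. Without CON-P3, 96 genes differed between exGF and CON. Of the 345 genes called for origin, 66 were called in both contrasts, 46 in GF alone, 52 in exGF alone and 181 in neither. For Pign the log2 fold change over CON was 0.67 in GF (adjusted p = 4.79e-07) and 0.60 in exGF mice (adjusted p = 6.93e-06). Cfap74 had 1.01 (adjusted p = 0.000132) and 0.95 (adjusted p = 0.000898), Rpl7a −0.79 (adjusted p = 0.000163) and −0.71 (adjusted p = 0.00194), and Tuba1c −3.17 (adjusted p = 0.000421) and −2.92 (adjusted p = 0.00348).

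**Figure D5:**
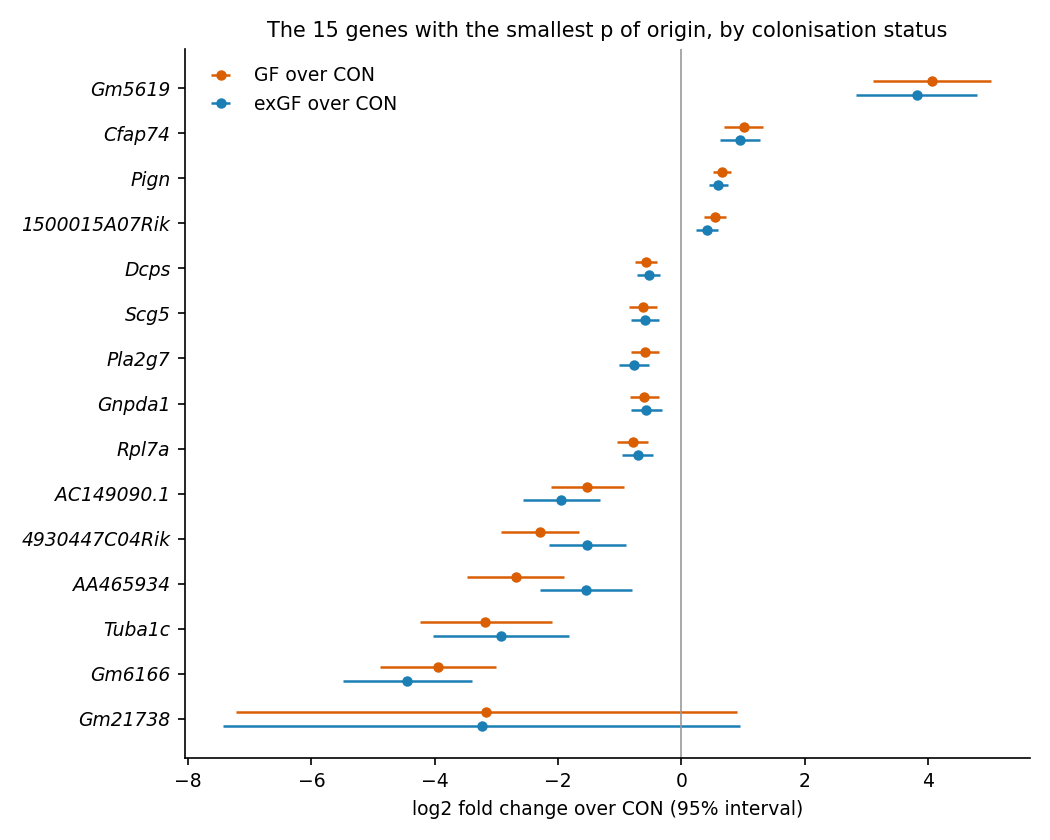
Log2 fold change over CON with its 95% interval for GF (orange) and exGF mice (blue), averaged over stimulus, in the 15 genes with the smallest p of origin among those with a mean of at least 1 CPM. The intervals of GF and exGF overlap in every gene shown, and those of Gm21738 include 0. The call of Gm21738 for origin is lost without CON-S3, which holds 157 CPM.

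The direct test of exGF against GF called none of the 345 genes. Since a missed threshold does not show that the groups are alike, the 95% intervals of the difference were examined. They lay within ±0.5 on the log2 scale for 246 of the 345 genes and within ±1 for 312. In 194 genes the difference between exGF and GF was under 0.25 of the size of the origin difference. The 345 genes were called on a contrast that pools exGF with GF, so that genes with CON levels in exGF mice were less likely to be among them, and these counts describe the genes so chosen. The interval was −0.21 to 0.08 for Pign, −0.19 to 0.26 for Scg5, −0.17 to 0.33 for Rpl7a and −1.01 to 1.51 for Tuba1c. Gkn3 was among the genes with the smallest p of this test, with a log2 fold change over CON of −1.46 in GF (adjusted p = 1.38e-05) and −0.66 in exGF mice (adjusted p = 0.115) and a difference of 0.80 (interval 0.39 to 1.21, adjusted p = 0.148).

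Over all genes, exGF and GF differed in 8 (0.0497%), which were Mid1, Banp, Per2, Rpgrip1l, Ero1lb and Uhrf2, higher in exGF (0.0372%), and Bcan and Htra1, lower. DESeq2 called 56 genes, and 1089 reached an unadjusted p under 0.05. The count was 0 without the libraries rich in Gm42418, 1 without exGF-P1 and 21 without exGF-S4, and it moved by over 1.5 times for 20 of the 40 libraries left out in turn. Mid1, an X-linked ubiquitin ligase that binds microtubules, held between 10.9 and 20.2 CPM in 7 of 8 exGF-SI libraries and 2.05 CPM in exGF-S7, against 1.84 to 3.71 CPM in GF-SI and 2.75 to 6.54 CPM in CON-SI. The naïve exGF pools held 16.4, 14.8, 6.93 and 6.52 CPM, and the naïve GF pools 10.4, 14.6, 2.25 and 1.86 CPM, so that GF-P1 and GF-P2 lay among the exGF pools. The log2 difference between exGF and GF was 1.51 ± 0.27 (adjusted p = 0.0129), and its call was lost without exGF-P1 (adjusted p = 0.11) and without the libraries rich in Gm42418 (adjusted p = 0.136).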

How the data were processed

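Total RNA of the left amygdala was sequenced as stranded, ribodepleted, paired reads of 100 bases. Per the labels and the methods, the authors trimmed reads with Trimmomatic 0.32, aligned them to GRCm38.p3 with STAR 2.4.0f1 and used HTSeq 0.6.0, ignoring strand, to count read pairs per gene of Ensembl release 78. The deposited values are raw counts for 43629 genes in 40 libraries. Columns name a group and not an animal. Symbols and positions were taken from GENCODE vM21, which named 42548 genes.

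In R 4.3.3, edgeR 4.0.16 was run with its filter on low counts, TMM scaling and the quasi-likelihood test, with origin and stimulus as terms and a threshold of 0.1. SE and 95% intervals were derived from the F statistic. CPM used TMM-scaled library sizes. Contrasts of GF, exGF and CON came from 1 fit over the 6 groups. Copies were matched to parent genes with blastn 2.17.0. The fit was also run on simulated counts with the same spread in every gene and no stimulus effect or outlying library. That run does not bear on calls that rest on few libraries. Libraries held 7291810 to 19961958 counts, and all 40 columns were mapped to a group.

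Gene lists, comparisons and the rule for naming genes were chosen with earlier results of these data known. Among genes called with a mean of at least 1 CPM, the rule covered the 15 smallest p and the 8 largest rises and falls. It also covered genes called in both stimulus states, up to 3 per list and called genes within 1 Mb of at least 2 others. The rest were 13 genes of an earlier account, and up to 5 called genes with the smallest p of the interaction and of exGF against GF. The text describes only part of the genes covered. AA465934, Gnpda1 and 1500015A07Rik, among the 15 smallest p, are left out of it. Fabp5, Gtpbp10, Zfand1, Prss56, Rpl7a-ps10, Gm13864, Gm3355, Jkamp, Hif1a and the list members and 8 genes named from counts were chosen after their values were seen. Alternatives were DESeq2 1.42.0, RLE scaling, no filter, fewer libraries, GC and length offsets (splines with 5 degrees of freedom), other models and thresholds, and each library left out in turn. The deposited DESeq2 1.6.2 results were not used.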

Additional observations from a re-analysis of the deposited data

Results flagged for a closer look

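The origin difference of Glo1 (interaction 0.61 on the log2 scale) and of Kcnj16 (1.49) differed between naïve and SI mice by the test of the interaction. The values stand in the comparison of stimulus states above.

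The highest or lowest library of 35 of 224 groups stood apart from the next nearest by more than Dixon's 95% critical value. The groups held 4 to 8 libraries and covered 45 genes. For normally distributed values chance alone would flag about 1 in 20 groups. That rate does not hold for counts near 0, and the genes were chosen with earlier results known. Where all other libraries of a group held 0 CPM, any read gave a flag, as for Gm14038 in exGF-P4. GF-SI, with 12 libraries, was not examined. Each value is given with the nearest library of its group.

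CON-S2 had 37.9 CPM of A830036E02Rik (nearest 14.4) and 10.6 CPM of Kcnj16 (nearest 7.35). exGF-S4 had 52 CPM of A830036E02Rik (nearest 31.2), 42.5 CPM of Glo1 (nearest 49.3) and 1.6 CPM of Gm10800 (nearest 0.673). GF-P3 had 14.6 CPM of Cfap74 (nearest 11.2), 212 CPM of Scg5 (nearest 182), 133 CPM of Tpm3 (nearest 107) and 0.564 CPM of Tuba1c (nearest 0.944). CON-P4 had 63.4 CPM of Glo1 (nearest 77.5). CON-S5 had 73.7 CPM of Glo1 (nearest 53.4). GF-P2 had 44.4 CPM of Glo1 (nearest 51.3). CON-S3 had 1060 CPM of Gm10800 (nearest 13.5), 2.47 CPM of Gm11940 (nearest 1.29), 6.54 CPM of Mid1 (nearest 4.46), 0.0667 CPM of Rpl7a-ps10 (nearest 0) and 509 CPM of Scg5 (nearest 285). exGF-S5 had 1.47 CPM of Gm11940 (nearest 0.842), 0.737 CPM of H2-Eb1 (nearest 0.337) and 13 CPM of Kcnj16 (nearest 8.47). exGF-P4 had 0.0567 CPM of Gm14038 (nearest 0). CON-S11 had 1.16 CPM of Gm3355 (nearest 0.172), 9.77 CPM of Prss56 (nearest 2.59) and 393 CPM of Rpl21 (nearest 228). exGF-S9 had 2.37 CPM of Gm3355 (nearest 1.21) and 0.182 CPM of Gm6877 (nearest 0.0842). CON-P1 had 1.08 CPM of Gm6877 (nearest 1.42). GF-P1 had 0.0652 CPM of Gm6877 (nearest 0). exGF-P1 had 13.3 CPM of Gtpbp10 (nearest 10.8). exGF-S7 had 14.7 CPM of Hist1h2al (nearest 1.77), 5.43 CPM of Hist2h2ac (nearest 2.97), 14.8 CPM of Pign (nearest 22.1) and 1.89 CPM of Rpl7a-ps10 (nearest 0.801). CON-P3 had 1.89 CPM of Prss56 (nearest 0.142). exGF-S6 had 76.8 CPM of Rpl7a (nearest 54.4).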

How the results depend on the processing

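The count of 345 genes of origin was 204 at an adjusted p under 0.05, 113 with a log2 fold change over 0.5 required, 205 with GF and GF-SI alone against CON, and between 233 and 509 under the other alternatives that kept the threshold. Left-out libraries gave 242 to 442 genes. The naïve count of 47 was 109 by DESeq2 and 13 without the libraries rich in Gm42418, and 16 to 43 with 1 library left out. The SI count of 359 was 660 by DESeq2, 204 without a filter, 171 with GC and length offsets and 165 without the libraries rich in Ttr (chosen after seeing the data), and 120 to 952 with 1 library left out. The interaction count of 2 was 21 by DESeq2, 0 without the libraries rich in Gm42418 and 1 with GC and length offsets, and 1 to 6 with 1 library left out. GF over CON gave 248 genes by DESeq2, 66 without the libraries rich in Gm42418, and 102 to 192 with 1 left out. For exGF over CON these were 246, 29, and 91 to 195. For exGF over GF they were 56, 0, and 1 to 21, and 2 without a filter. The cause of these changes was not tested, apart from the fewer libraries and the larger number of genes tested that the alternatives themselves bring.

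The alternatives were applied to 114 genes called for origin, not all of which are described above. Of them, 75 kept the call with each library left out, 48 kept it under all 50 alternatives, and none changed direction. The call was lost in 45 with GF alone, 40 with exGF alone, 35 in the fit over the 6 groups that gave the GF and exGF contrasts, 27 without a filter, 24 without the libraries rich in Gm42418, 21 without those rich in Ttr, 21 with GC and length offsets, 18 without the stimulus term, 1 with RLE scaling and 0 by DESeq2. No paired analysis was possible because the columns carry no number that links libraries of different groups.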
